A study of Homo sapiens with 3 samples.

Results

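The nuclear genes for the subunits of oxidative phosphorylation were followed in 3 libraries of Hep3B, a cell line from a human liver cancer (hepatocellular carcinoma). Rows were taken by symbol, with the prefixes NDUFA, NDUFB, NDUFC, NDUFS, NDUFV, SDHA to SDHD, UQCR, COX4I, COX5, COX6, COX7, COX8 and ATP5, leaving out assembly factors and pseudogenes. This gave 90 of the 19862 genes of the table. Of these, 88 are genes of a complex, with 37 in complex I, 4 in complex II, 9 in complex III, 19 in complex IV and 19 in complex V, and 2 are read-through rows that join a subunit gene to a neighbour. NDUFA4 and NDUFA4L2 were counted with complex IV, where their proteins are found. A mean of at least 1 FPKM (fragments per kilobase of transcript, scaled to the fragments of the library) was reached by 83 of the 90 rows, and 7 rows, all of complex IV, fell short.

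Each group held 1 library of cultured cells, so differences have no replicate check and no test was possible. Where 3 values follow each other, they stand for the control, the HKR3 library and the library labelled siTERT, in this order, and pairs of values stand for the first 2 of these. The control is titled NT-Empty and its treatment is given as Fugene, the transfection reagent. The HKR3 library came from cells given the expression plasmid pcDNA3.1-HKR3, where HKR3 is an older name of the zinc finger gene ZBTB48, and the third library is labelled siTERT, for a small interfering RNA against the telomerase gene TERT. Medium was replaced 6 h after transfection, and the sources used here do not state the time of harvest. Whether the control cells received an empty plasmid or a nontargeting RNA is not stated there either, so plasmid or RNA transfection as such cannot be told apart from HKR3 or siTERT.

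Oxidative phosphorylation takes place in the inner mitochondrial membrane. Complex I (NADH dehydrogenase) and complex II (succinate dehydrogenase) pass electrons to coenzyme Q, complex III passes them on to cytochrome c, and complex IV (cytochrome c oxidase) reduces oxygen. The proton gradient built by complexes I, III and IV drives complex V, the ATP synthase. Most subunits are encoded in the nucleus and imported, while a small core of complexes I, III, IV and V comes from the mitochondrial genome, and complex II is wholly nuclear. Many promoters of these genes are known to bind NRF1, GABP (an ETS factor), YY1 or SP factors.

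As a check of the labels, ZBTB48 was at 4.91, 2842 and 4.89 FPKM. TERT was at 4.69, 4.25 and 5.37 FPKM, so the library labelled siTERT did not have less TERT, and directions there belong to the label only. All 8 hepatocyte-like markers were measured, from HNF4A at 72.1 FPKM to AFP at 4055 FPKM in the control. Among the markers of other cells, PTPRC, CD3E, VWF, CDH5, DCN, CKM and TNNT2 were listed at 0 in every library. The remaining fibroblast and muscle markers were low but not all at 0. COL1A1 was at 0.0457, 0.0137 and 0 FPKM, and COL1A2 at 0.0207, 0 and 0.0186 FPKM. ACTA1 was at 0.504, 1.12 and 0.409 FPKM, and MYH7 at 0, 0 and 0.00978 FPKM. The other 2 of 4 leukocyte markers were measured, and LYZ was at 392.5, 210.3 and 391.9 FPKM, and CD14 at 6.20, 3.13 and 4.82 FPKM. The estimated number of fragments was between 1.01e+07 and 1.14e+07 per library, worked out from what 1 fragment is worth at low FPKM.

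Promoter sequences are shown first for genes at or near the ends of the range in the HKR3 library, and for a pair with the NRF1 motif in the printed part. They come from the RefSeq promoter table (GRCh38.p14), which reaches from 250 bases before to 50 bases after each start site and matched 70 of the 88 genes. Only the longest stretch free of annotated exons is printed, 5′ to 3′ on the gene's strand, with motif matches in capitals. Stretches under 60 bases were not printed. ATP5ME was passed over for this reason, although its difference of -1.03 was lower than that of ATP5MC1. NDUFA8 (complex I, chr9:122159820-122159907, minus strand) and ATP5MC1 (complex V, chr17:48892678-48892764, plus strand) had large negative differences.
NDUFA8: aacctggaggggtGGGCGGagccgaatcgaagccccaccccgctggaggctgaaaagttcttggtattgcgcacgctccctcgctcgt
ATP5MC1: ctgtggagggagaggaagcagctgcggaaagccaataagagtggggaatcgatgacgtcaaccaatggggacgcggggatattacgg
NDUFS4 (chr5:53560389-53560632, plus strand) and NDUFA5 (chr7:123601652-123601853, minus strand), both accessory subunit genes of complex I, had the highest differences among genes of a complex that passed the filter.
NDUFS4: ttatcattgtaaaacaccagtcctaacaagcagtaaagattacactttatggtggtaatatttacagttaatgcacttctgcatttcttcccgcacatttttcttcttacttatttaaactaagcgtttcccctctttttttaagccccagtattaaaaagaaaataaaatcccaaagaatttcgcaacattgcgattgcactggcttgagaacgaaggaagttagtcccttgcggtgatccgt
NDUFA5: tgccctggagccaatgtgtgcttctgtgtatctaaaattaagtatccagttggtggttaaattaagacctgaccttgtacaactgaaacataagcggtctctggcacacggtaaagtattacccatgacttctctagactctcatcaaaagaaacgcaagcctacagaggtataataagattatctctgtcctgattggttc
NDUFA12 (chr12:95003771-95003947, minus strand) and NDUFB4 (chr3:120596086-120596308, plus strand), also of complex I, hold NRF1 matches in the printed part.
NDUFA12: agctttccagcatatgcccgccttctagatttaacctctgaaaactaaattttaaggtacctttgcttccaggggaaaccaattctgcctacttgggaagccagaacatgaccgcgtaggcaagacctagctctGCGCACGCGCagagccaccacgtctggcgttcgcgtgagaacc
NDUFB4: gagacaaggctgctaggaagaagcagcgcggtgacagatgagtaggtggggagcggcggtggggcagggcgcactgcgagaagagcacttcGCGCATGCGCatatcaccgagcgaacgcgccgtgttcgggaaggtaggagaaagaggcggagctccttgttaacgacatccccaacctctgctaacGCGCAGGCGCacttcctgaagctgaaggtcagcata

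The capitals in NDUFA8 are an SP match (GGGCGG) that starts 115 bases before the start site. Those in NDUFA12 are an NRF1 match (10 bases) at 116 bases, and those in NDUFB4 are NRF1 matches at 159 and 63 bases. No motif searched lies in the printed stretches of ATP5MC1, NDUFS4 and NDUFA5. Outside the printed stretches, NDUFA8 also held the NRF1 motif and NDUFS4 the YY1 motif. ATP5MC1 and NDUFA5 held none of the motifs searched in the full 300 bases. The 300 bases of ATP5ME, not printed, held the NRF1 and ETS motifs. Both strands were searched over the full 300 bases, and a match describes the letters only. Of the 66 subunit genes that reached 1 FPKM and had an entry, 16 (24.2%) held the NRF1 motif, against 6.3% of all 27305 promoters and 12.6% of those of the 8943 tested genes with an entry. The ETS motif CCGGAAG was in 20 of 66 (30.3%), against 10.7% and 21.1%. The YY1 motif AAGATGGCG was in 8 of 66 (12.1%), against 1.8% and 4.5%, and the SP motif in 41 of 66 (62.1%), against 44.6% and 71.3%. By complex, the NRF1 motif was in 6 of 32 promoters of complex I, 2 of 3 of complex II, 4 of 7 of complex III, 0 of 10 of complex IV and 4 of 14 of complex V.

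In the control library the subunit genes were highly expressed. The 88 genes together took 3.51% of the FPKM sum, and the 81 above the filter had a median level of 189 FPKM, against 12.7 FPKM over all 10974 genes tested. Complex V took the largest share with 1.28%, followed by complex I with 1.12%, complex IV with 0.783%, complex III with 0.261% and complex II with 0.0661%. Levels within a complex were far from equal. In complex I they ran from NDUFV3, a small accessory subunit, at 10.7 FPKM to NDUFA11, a membrane arm subunit, at 538 FPKM, a 50.5-fold range. In complex V they ran from ATP5MGL, a copy of ATP5MG, at 15.7 FPKM to ATP5ME, a small membrane subunit, at 1101 FPKM. The 4 genes of complex II lay closer together, between 66.2 FPKM for SDHA and 143 FPKM for SDHC.

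**Figure D1:**
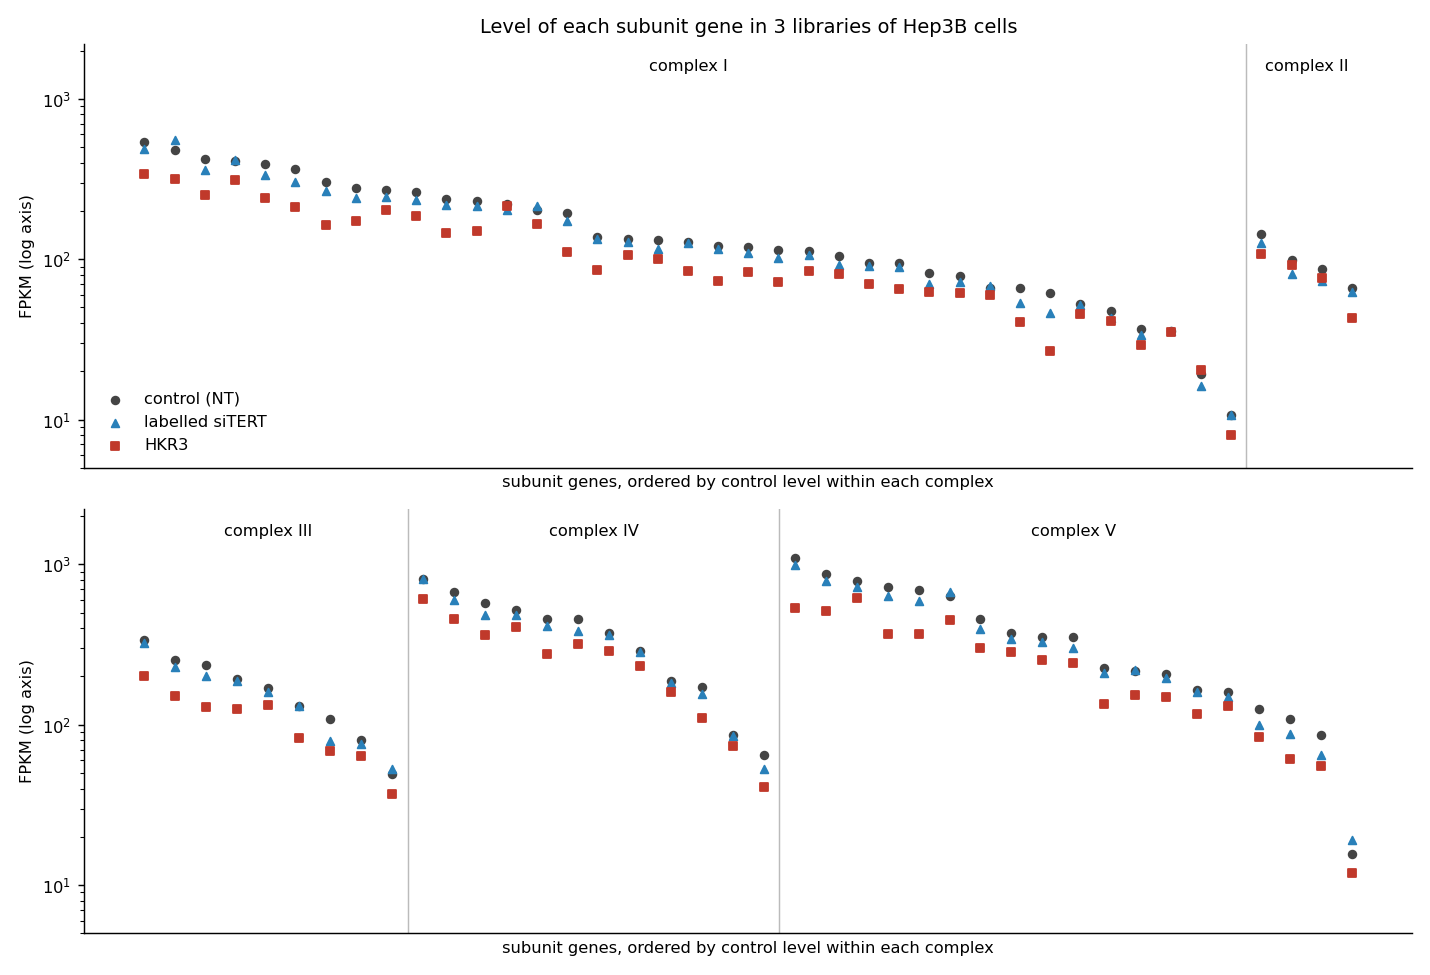
FPKM (log axis) of each subunit gene of complexes I to V with a mean of at least 1 FPKM, in the control (dark circles), the library labelled siTERT (blue triangles) and the HKR3 library (red squares), 1 library each and no error bars. Within each complex genes are ordered by their control level, and the red squares lie below the dark circles for 80 of the 81 genes, NDUFS4 being the exception.

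The comparison of the HKR3 library with the control asked how these genes stood when HKR3 was overexpressed. Subunit genes of all 5 complexes were lower in the HKR3 library. Of the 83 rows tested, 81 were below the control, or 97.6%, where 51.4% of all genes tested were. The median difference in log2(FPKM + 1) was -0.49, against -0.02 over all genes tested. At least 1.5-fold lower were 35 of 83 rows (42.2%), against 12.7% of all genes, and 2 were at least 2-fold lower, or 2.41%, against 2.52%. At least 1.5-fold higher was 1 row, against 15.3% of all genes, and 0 rows were at least 2-fold higher, against 5.52%. Counting error alone was small for most rows: the counting interval of the ratio to the control lay below 1 for 75 of 83 and included 1 for the other 8. For the library labelled siTERT the interval lay below 1 for 43 rows, included 1 for 38 and lay above 1 for 2. Intervals were calculated for the subunit rows only, so these counts have no background share. They are for the FPKM as deposited and depend on the scaling. The upper bound of SDHB in the HKR3 library, for example, was 0.999. The sum of the 88 genes was 20926 FPKM in the control against 13989 FPKM with HKR3, which brought their share of the FPKM sum from 3.51% to 2.61%.

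The size of the difference depends on how the libraries are scaled. The FPKM of all genes summed to 596536, 535516 and 579410. With every library brought to the same sum, the median of all genes was 0.12 and that of the subunit genes -0.34, 77 of 83 were below 0 and 13 were at least 1.5-fold lower (15.7%), against 7.66% of all genes. Scaled to the cytosolic ribosomal protein genes, the medians were 0.24 and -0.21, with 72 of 83 below 0 and 5 at least 1.5-fold lower (6.02%), against 4.91%. In each scaling the subunit genes had a lower median than all genes tested.

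**Figure D2:**
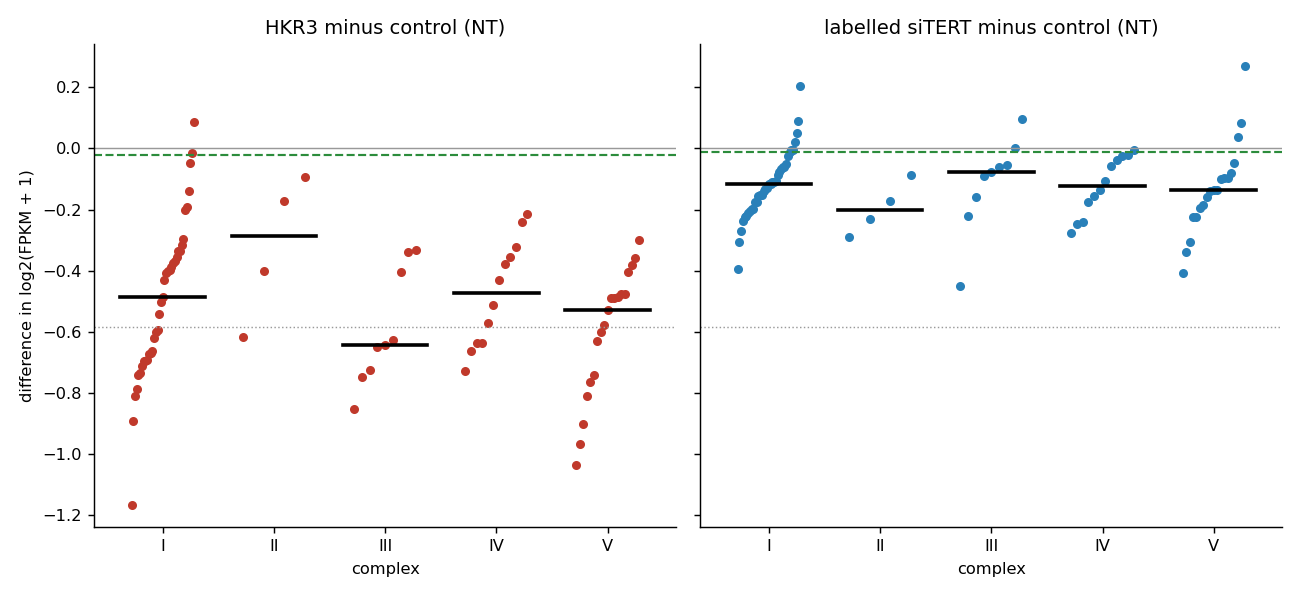
Difference in log2(FPKM + 1) of each subunit gene (points) for HKR3 minus control (left) and the library labelled siTERT minus control (right), by complex. Black bars are medians, the green dashed line is the median of all genes tested and the dotted line marks 1.5-fold lower. The left medians lie between -0.29 and -0.64, and the right ones between -0.08 and -0.20.

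Complex I held the gene with the largest difference. NDUFA8, an accessory subunit that faces the intermembrane space, was at 61.2, 26.7 and 46.3 FPKM. The HKR3 library was lowest, and the log2 difference was -1.17. Its ratio of 0.437 to the control had an approximate 95% counting interval from 0.375 to 0.509, on about 524 and 254 estimated fragments. NDUFV1, which carries the NADH binding site, was at 304, 164 and 265 FPKM, a log2 difference of -0.89 between the first pair. NDUFA3, NDUFA13, NDUFS5 and NDUFB10 followed with differences from -0.81 to -0.73, and the acyl carrier protein NDUFAB1 went from 238 to 145 FPKM. In all, 16 of 37 genes of complex I passed 1.5-fold, all downward, against 12.7% of all genes at least 1.5-fold lower. The median was -0.49. Counts by complex, here and below, are for the FPKM as deposited and depend on the scaling. Over all complexes, 35 rows at least 1.5-fold lower became 13 at the same sum and 5 with ribosomal protein scaling.

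The 7 nuclear core subunits of complex I, which hold the flavin and iron-sulfur clusters, had a median of -0.34, and the 30 accessory subunits a median of -0.57. Only NDUFV1 among the core subunits (14.3%) was at least 1.5-fold lower, and 15 of 30 accessory subunits (50%) were, against 12.7% of all genes. This contrast in counts depends on the scaling. With libraries at the same sum, 14.3% of core and 13.3% of accessory genes were past 1.5-fold, against 7.66% of all genes. Scaled to the ribosomal protein genes, the shares were 14.3% and 3.33%, against 4.91%. The medians kept their order, with -0.18 for core and -0.41 for accessory genes at the same sum, and -0.05 and -0.29 in the other scaling. Core genes of the quinone module were close together, with NDUFS3 at 134 and 106 FPKM, and differences from -0.43 to -0.33 for NDUFS7, NDUFS8 and NDUFS3. The core genes of the NADH module were not: beside NDUFV1, the iron-sulfur subunit NDUFS1 was at 66.0 and 59.9 FPKM and NDUFV2 at 221 and 214 FPKM. NDUFV1 and NDUFV2, whose proteins form the NADH-oxidising tip together, thus had log2 differences of -0.89 and -0.05. NDUFS1 and NDUFV2 were above 0, at 0.02 and 0.11, once libraries were scaled to the same sum.

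The single subunit gene above the control among the 81 past the filter was NDUFS4, an accessory subunit of the NADH module known for mutations in Leigh syndrome. It was at 19.3, 20.5 and 16.2 FPKM, and its ratio to the control in the HKR3 library, 1.07, had a counting interval from 0.820 to 1.39. No difference in NDUFS4 was therefore detectable at this depth. NDUFA5, an accessory subunit of the matrix arm, was at 35.6, 35.2 and 35.5 FPKM, nearly level in the 3 libraries. The read-through row NDUFC2-KCTD14, the 1 row at least 1.5-fold higher, was at 0.391, 1.43 and 1.28 FPKM and rests on about 2 and 6 fragments. Its mean passed 1 FPKM only through the libraries where it is high. The other read-through row, ATP5MF-PTCD1, was at 10.7, 8.15 and 8.19 FPKM. NDUFC2 itself, a membrane arm subunit, was at 483, 318 and 556 FPKM.

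Complex II had the median nearest to 0 of the 5 complexes. SDHA, the flavoprotein that oxidises succinate, was at 66.2, 42.9 and 62.2 FPKM. It was the 1 of 4 genes at least 1.5-fold lower, against 12.7% of all genes. The iron-sulfur subunit SDHB was at 86.3, 76.6 and 73.3 FPKM. The membrane anchors were at 143, 108 and 127 FPKM for SDHC, and 99.0, 92.6 and 80.8 FPKM for SDHD. For SDHB and SDHD the library labelled siTERT was the lowest of the 3. The median of the 4 genes was -0.29 in the HKR3 library, -0.13 with libraries scaled to the same sum and -0.0020 when scaled to the ribosomal protein genes. Their share of the FPKM sum was 0.0661%, 0.0598% and 0.0593%.

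Complex III had the lowest median, -0.64, with 9 of 9 genes below the control. Of these, 6 were at least 1.5-fold lower, against 12.7% of all genes. The small subunit UQCR10 was at 235, 129 and 201 FPKM. UQCRQ was at 255, 151 and 228 FPKM, and UQCRH, the hinge protein that contacts cytochrome c1, at 336, 202 and 322 FPKM. These genes were lowest in the HKR3 library and nearer to the control in the other. Of the core proteins, UQCRC1 was at 193, 125 and 186 FPKM, and UQCRC2 at 108, 69.0 and 79.0 FPKM. UQCRFS1, the Rieske iron-sulfur protein, was at 80.4 and 63.7 FPKM, the smallest difference of the complex at -0.33. UQCRHL is a near-identical copy of UQCRH, listed at 49.2 and 36.9 FPKM, and how reads divide between the copies is not certain. Their sum was 385, 239 and 374 FPKM, a log2 difference of -0.68 in the HKR3 library.

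In complex IV the 12 genes above the filter were all below the control, with a median of -0.47. Of the 12, 4 were at least 1.5-fold lower, against 12.7% of all genes. These 4 were COX6B1, COX8A, COX7B and NDUFA4. COX6B1, on the intermembrane side, was at 459, 277 and 412 FPKM, and COX8A at 577, 364 and 486 FPKM. COX4I1, the largest nuclear subunit, was the most abundant at 815, 604 and 812 FPKM, a log2 difference of -0.43. The smallest differences were those of COX6C, at -0.24, and COX7A2L, a factor for joining complexes III and IV, which was at 86.1 and 74.1 FPKM. COX7A2L had a difference of -0.21.

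Several subunits of complex IV have tissue-specific forms, and in Hep3B the ubiquitous form was the higher in each pair. COX6A1 was at 520.4, 407 and 483 FPKM, and the heart and muscle form COX6A2 was listed at 0 throughout. COX7A2 was at 289.6, 231 and 285 FPKM, with its muscle form COX7A1 listed at 0. The same held for COX7B against COX7B2, at 64.5 FPKM and listed at 0. COX4I2, the lung form of COX4I1, had 0.143 FPKM in the HKR3 library alone, and COX8C 0.285 FPKM there. COX6B2, the testis form of COX6B1, had 0.892 FPKM in the control alone. NDUFA4L2, a hypoxia-induced paralog of NDUFA4, stayed below 1 FPKM, with 0.819, 0.337 and 0.170 FPKM, against 171, 109.5 and 155 FPKM for NDUFA4. All 7 of these paralogs stayed under 1 FPKM.

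Complex V had a median of -0.53 with 19 of 19 genes below the control, and its summed share went from 1.28% to 0.901%. Of the 19, 8 were at least 1.5-fold lower, against 12.7% of all genes. The c ring is the proton-driven rotor. Of its genes, ATP5MC1 and ATP5MC3 were the lowest of the complex after ATP5ME, while ATP5MC2 lay nearer to the median. ATP5MC1, ATP5MC2 and ATP5MC3 are 3 genes known to encode the same mature c subunit behind different targeting peptides. ATP5MC1 was at 722, 369 and 634 FPKM, ATP5MC3 at 692, 369.6 and 592 FPKM, and ATP5MC2 at 455, 299 and 397 FPKM. All 3 passed 1.5-fold downward with HKR3, by differences of -0.97, -0.90 and -0.60. Together they gave 1868, 1038 and 1623 FPKM, and ATP5MC1 supplied 38.6% of this in the control and 35.5% in the HKR3 library.

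The 6 small membrane subunits ranged from -1.03 to -0.38. ATP5ME was at 1101, 537 and 986 FPKM, a difference of -1.03, with a ratio of 0.488 and a counting interval from 0.463 to 0.514. It and NDUFA8 were the 2 genes at least 2-fold lower. ATP5MF was at 865, 509 and 786 FPKM and ATP5MJ at 108, 61.0 and 87.1 FPKM. ATP5MG had -0.58, while ATP5MK, at 635, 453 and 672 FPKM, had -0.49 and ATP5MGL -0.38, both nearer to 0 than the median of the complex. The F1 head, which makes ATP, ranged from -0.36 to -0.63, with ATP5F1E the lowest. Its catalytic beta subunit ATP5F1B was at 793, 617 and 721 FPKM and its alpha subunit ATP5F1A at 375, 284 and 341 FPKM, with differences of -0.36 and -0.40. The 5 genes of the head and central stalk had a median of -0.49, the 4 of the peripheral stalk -0.48, the 6 small membrane subunits -0.67 and the 3 of the c ring -0.90. ATP5PB, of the peripheral stalk, had the smallest difference at -0.30. ATP5IF1, the inhibitor that blocks reverse rotation, was at 350.2 and 243 FPKM.

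Reads of some genes of complex V may be split with copies. ATP5F1E, the epsilon subunit, was at 85.9, 55.2 and 64.5 FPKM, below its near-identical intronless copy ATP5F1EP2, named as a pseudogene, at 130.4, 96.1 and 136 FPKM. Their sum was 216, 151 and 201 FPKM. The sum differed from the control by -0.51 with HKR3 and by -0.11 under the siTERT label, where ATP5F1E alone had -0.41. ATP5MG and its copy ATP5MGL together were at 142, 96.0 and 118 FPKM.

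Other properties of the genes moved with the difference. Over all genes, highly expressed, short and GC-rich transcripts were lower in the HKR3 library, and the subunit genes are highly expressed and short, with a median transcript length of 703 bases against 1758 bases. The trend with level depends on the libraries that set the level. Over the other genes, Spearman's rho was -0.30 with the control level and -0.11 with the mean of the other libraries. Over the subunit rows it was -0.44 and -0.36. In each class of level, length or GC content the subunit genes had a lower median than the other genes. Between 100 and 300 FPKM the 34 subunit genes had a median of -0.55 and the 616 other genes -0.22, and 33 of the 34 lay below that value. At 300 FPKM and above, the medians were -0.60 for 21 and -0.29 for 252 genes. In transcripts under 600 bases they were -0.62 for 24 and -0.11 for 515 genes. With level, length and GC class combined, 76 of 82 rows lay below the median of the other genes of their class, with a median distance of -0.27 on the log2 scale. By complex these distances were -0.28 for complex I, -0.07 for complex II, -0.32 for complex III, -0.19 for complex IV and -0.29 for complex V.

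**Figure D3:**
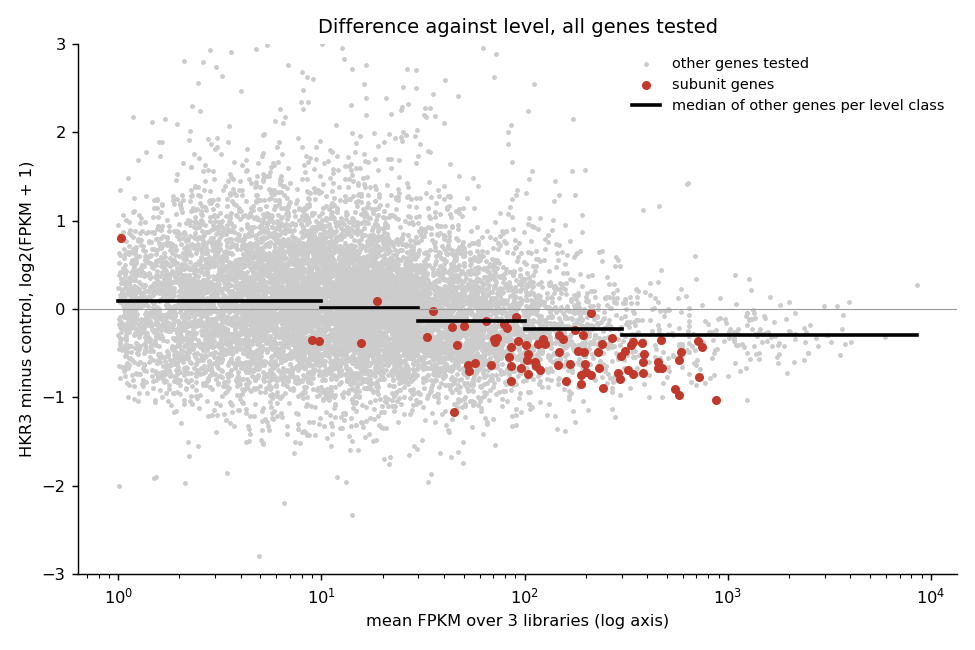
HKR3 minus control, in log2(FPKM + 1), against the mean FPKM over 3 libraries (log axis), with subunit genes in red, other genes tested in grey and the median of the other genes in each level class as black lines. 15 genes lie beyond the plotted range of 3 in either direction, and most red points lie below the black lines.

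**Figure D4:**
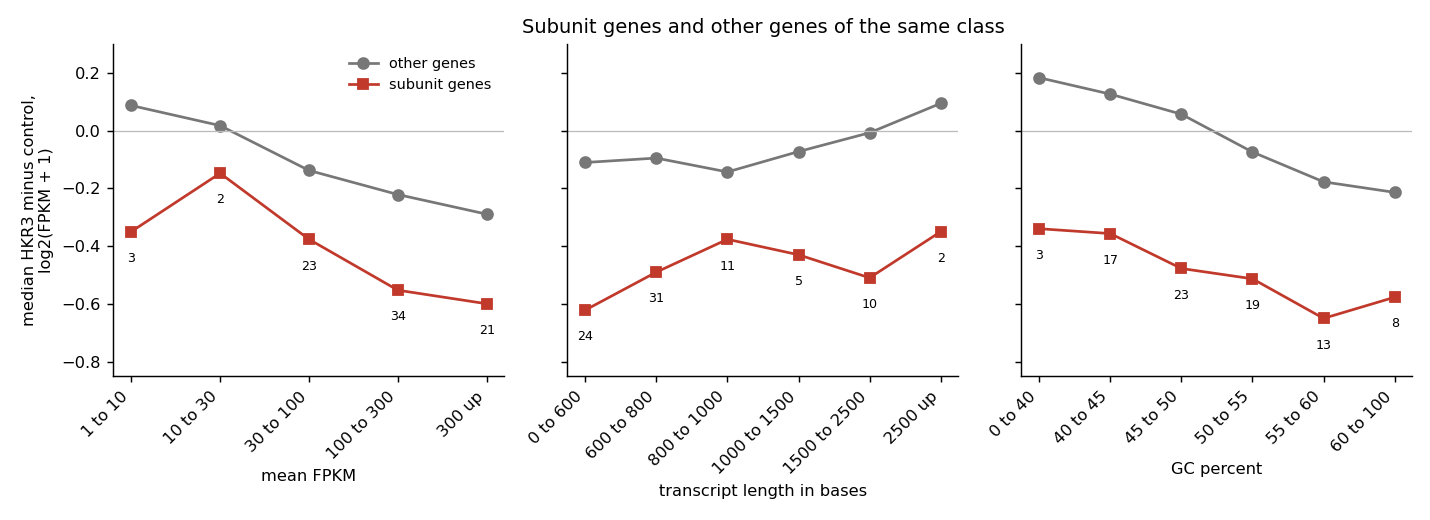
Median of HKR3 minus control for subunit genes (red squares, number of genes below each) and other genes (grey circles) in classes of mean FPKM, transcript length and GC content. The red squares lie below the grey circles in every class shown, although some classes hold only 2 or 3 subunit genes.

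Among the subunit genes themselves, the difference was lower for shorter transcripts and for higher GC content, with Spearman's rho of 0.30 with length and -0.36 with GC percent over 83 rows. Over the 10853 other genes with a length, these values were 0.15 and -0.27. These are descriptions across genes of the same pair of libraries. Genes with and without the NRF1 motif had medians of -0.62 and -0.52, those with and without the ETS motif -0.53 and -0.54, with and without the YY1 motif -0.41 and -0.56, and with and without the SP motif -0.49 and -0.64.

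Hepatocyte-like markers were lower in the HKR3 library too. Their summed level was 13557, 9179 and 13057 FPKM. All 8 were below the control, where 51.4% of all genes tested were. The median was -0.57, with differences between -1.03 (APOA1) and -0.30 (ALB). This median was -0.41 with libraries scaled to the same sum and -0.28 when scaled to the ribosomal protein genes. The markers' median level was 1397 FPKM in the control. Genes other than subunit genes at 300 FPKM and above had a median of -0.29. The measured leukocyte markers LYZ and CD14 had -0.90 and -0.80. The part of the marker shift in the subunit result was not tested. In such bulk libraries, fewer cells with a transcript and less of it per cell cannot be told apart.

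The library labelled siTERT was set against the same control, and its subunit genes stood slightly lower. The median was -0.13, against -0.01 over all genes, and 73 of 83 rows were below 0 (88%), where 52.6% of all genes were. With libraries at the same sum the median was -0.09 and 65 rows were below 0, against a median of 0.03 over all genes. Scaled to the ribosomal protein genes it was -0.05 with 55 rows below 0, against 0.06. At least 1.5-fold lower were 0 rows, against 1.24% of all genes, and 1 row was at least 1.5-fold higher, against 1.69%. None was 2-fold lower or higher, against 0.2% and 0.282%. In the combined classes of level, length and GC content, 57 of 82 rows lay below the other genes' median, at a median distance of -0.07. The lowest were UQCRC2 at -0.45, ATP5F1E at -0.41 and NDUFA8 at -0.40. The highest complete subunit genes were ATP5MGL at 0.27 and NDUFC2 at 0.20. Medians by complex ran from -0.20 in complex II to -0.08 in complex III, the latter 0.0011 when scaled to the ribosomal protein genes. The summed share of the 88 genes was 3.32%, between those of the other libraries.

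The HKR3 library can also be set against the library labelled siTERT, which leaves the control out. Here 78 of 83 rows were lower in the HKR3 library (94%), against 50.5% of all genes, with a median of -0.39 against -0.01. At least 1.5-fold lower were 16 rows (19.3%), against 9.71%, and none was at least 1.5-fold higher, against 12.9%. None reached 2-fold either way, against 1.38% of all genes downward and 4.11% upward. The count at 1.5-fold lower depends on the scaling, with 4 rows (4.82%) against 6.42% of all genes at the same sum, and 2 rows (2.41%) against 4.63% when scaled to the ribosomal protein genes. In these scalings the share of subunit genes was thus under that of all genes. NDUFC2 and ATP5ME had the lowest differences of complexes I and V, -0.80 and -0.88. Complex III had a median of -0.57 and complex V of -0.44. Complex II had -0.08, which turned to 0.03 with libraries scaled to the same sum. The order of control, library labelled siTERT and HKR3 library, from high to low, was seen in 69 of 83 rows (83.1%), against 28.5% of all genes. This count is for the FPKM as deposited, whose sums fall in the same order. Scaled to the ribosomal protein genes, 55 rows were lower in the library labelled siTERT than in the control, against 4094 of 11066 genes. In that scaling 65 rows were lower in the HKR3 library than in the library labelled siTERT, against 3822 genes. The full order was not counted there.

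Assembly factors build the complexes but are not part of them. Their medians in the HKR3 library were nearer to 0 than those of the subunits for complexes I, III, IV and V, and lower than that of the subunits for complex II. Of 18 factors for complex I, 15 were below the control and 3 (16.7%) were at least 1.5-fold lower, against 12.7% of all genes. The median was -0.12. DMAC1 was at 8.48 and 4.49 FPKM, NDUFAF8 at 102.6 and 60.6 FPKM and FOXRED1 at 34.1 and 20.3 FPKM, whereas NDUFAF5 was at 8.37 and 11.2 FPKM. Medians were -0.34 for 4 factors of complex II, -0.06 for 9 of complex III, -0.22 for 23 of complex IV and -0.14 for 6 of complex V. Those of complexes I and III were above 0 with libraries scaled to the same sum, and those of complexes IV and V when scaled to the ribosomal protein genes. COX10, which makes heme for complex IV, was at 11.9 and 21.4 FPKM, and TMEM242 of complex V at 7.07 and 11.5 FPKM. These were the 2 factors at least 1.5-fold higher. They were 1 of 23 for complex IV (4.35%) and 1 of 6 for complex V (16.7%), against 15.3% of all genes. At least 1.5-fold lower were 4 of the 23 factors for complex IV (17.4%), against 12.7% of all genes. Among these, COX14 was at 66.7 and 37.1 FPKM, and PET100 at 88.4 and 52.4 FPKM.

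The electron carriers had a median nearer to 0 than the subunits of every complex. It was lower than the medians of the assembly factors, except those of complex II. CYC1, the cytochrome c1 subunit of complex III whose symbol lies outside the prefixes, was at 276, 183 and 246 FPKM. CYCS, the soluble cytochrome c, was at 176, 170.04 and 178 FPKM, a log2 difference of -0.05 in the HKR3 library. DHODH, which feeds electrons to coenzyme Q from pyrimidine synthesis, was at 10.3, 5.40 and 7.66 FPKM. The 7 carriers were all below the control with a median of -0.26, which was 0.03 when scaled to the ribosomal protein genes. The 13 subunits of the mitochondrial genome were listed at 0 throughout. A listed 0 for such abundant transcripts does not show absence, so nuclear and mitochondrial subunits could not be compared.

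Regulators of mitochondrial biogenesis lay the other way. Of 10 measured, 8 were above the control in the HKR3 library, where 5335 of all 10974 genes tested were. At least 1.5-fold higher were 4 (40%), against 15.3% of all genes. The regulators had a median level of 17.3 FPKM in the control. Genes other than subunit genes had a median of 0.09 between 1 and 10 FPKM and 0.02 between 10 and 30 FPKM. The regulators' median was 0.47 and stayed above 0 in the other 3 scalings. GABPB1, the beta subunit of GABP, was at 14.3, 36.4 and 15.4 FPKM. NFE2L2, known for antioxidant genes, was at 135, 249 and 187 FPKM, and NRF1 at 6.69, 12.7 and 5.79 FPKM. GABPB1 and NRF1 were thus high in the HKR3 library alone. PPARA was at 5.57, 2.45 and 5.53 FPKM, and PPARGC1A, the coactivator PGC-1 alpha, was at 0.0222, 0.0202 and 0 FPKM. Of the 14 genes for expression of the mitochondrial genome, 7 were above and 7 below the control, with a median of -0.04. TFB1M was the 1 gene at least 1.5-fold lower (7.14%), against 12.7% of all genes.

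**Figure D5:**
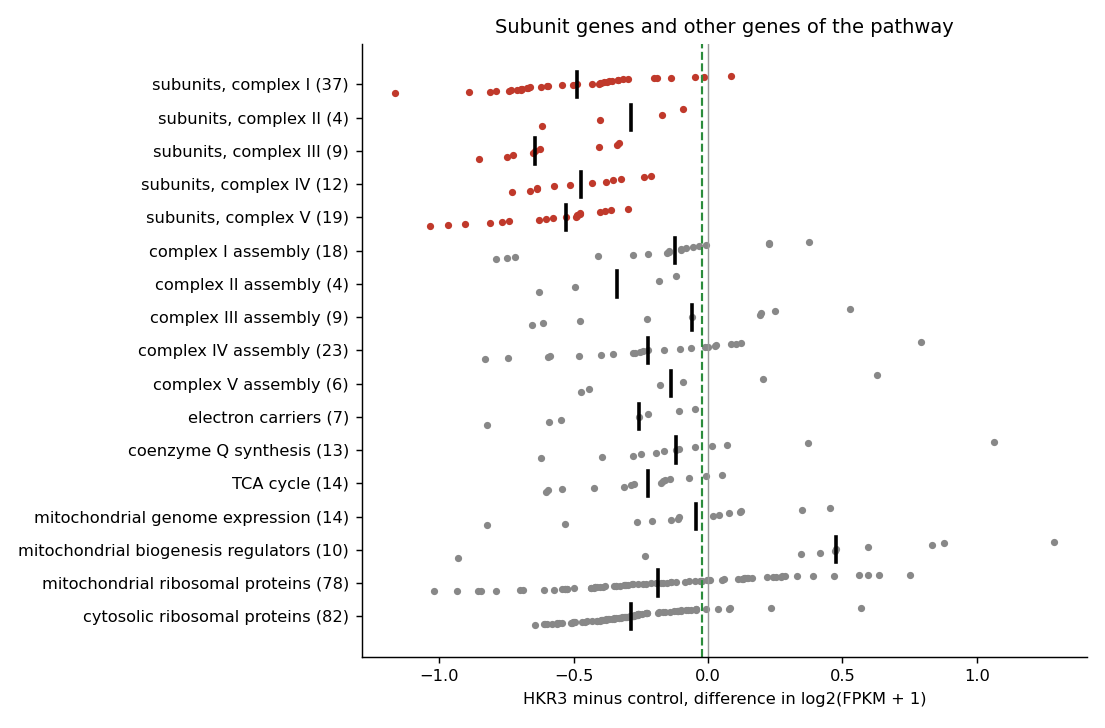
HKR3 minus control, in log2(FPKM + 1), for subunit genes by complex (red) and other genes of the pathway (grey), with the number of genes in brackets, medians as black bars and the median of all genes tested as the green dashed line. Subunit medians lie from -0.64 to -0.29, and the regulators have the highest median at 0.47.

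Ribosomal protein genes, another large set of genes for subunits of complexes, were set beside these. The 82 cytosolic ones had a median HKR3 minus control difference of -0.29, with 77 below the control. At least 1.5-fold lower were 4 (4.88%), under the 12.7% of all genes. Their median transcript length was 685 bases at a median of 1539 FPKM. The 78 mitochondrial ones had a median of -0.18, with 53 below the control, at a median of 60.01 FPKM. At least 1.5-fold lower were 8 (10.3%), also under the 12.7% of all genes. Their median difference was 0.10 when scaled to the cytosolic ones. The subunit genes thus had a lower median than both, with the cytosolic group at a higher level and the mitochondrial group at a lower one. In the library labelled siTERT the medians were -0.08 and -0.09.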

How the data were processed

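RNA sequencing libraries of 3 Hep3B cultures, 1 per group, were compared. Per the labels' protocols, TRIzol was used for RNA, and the TruSeq messenger RNA kit was a stranded one. The authors deposited FPKM (fragments per kilobase of transcript and of mapped fragments). Tools named per the submitters' processing notes are Cuffdiff 2.2.1, Cufflinks and STAR 2.5.0, and the build is hg19. The sources used here do not state their settings, the use of strand or further scaling. Further scaling, or a gene that takes many fragments, shifts all other FPKM values.

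Of 19869 rows, 19119 matched a gene name. The 4 short noncoding rows were left out and rows sharing a symbol (6) were summed. Differences were calculated in log2(FPKM + 1) over the 10974 genes that averaged 1 FPKM or more, which understates those of weakly expressed genes. Folds of 1.5 and 2 replaced a test. Background shares are over all genes tested. Transcript lengths and GC content are medians over coding transcripts of GENCODE 29. Fragments were estimated from low values and each gene's shortest coding transcript. Counting intervals are exact binomial at 95%, cover counting error only and assume unscaled FPKM. Python 3.11.15, pandas 2.3.3 and scipy 1.17.1 were used, and the calculation was tested on simulated data.

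Genes named were members past 1.5-fold, the extremes of each complex, paralogs, core subunits and up to 4 genes per list with the largest absolute difference. NDUFA5, NDUFA12, NDUFB4, ATP5MF-PTCD1, ATP5IF1, ATP5F1EP2, COX6C, ATP5MK, CYCS, PPARGC1A and NDUFAF5 are named outside this rule. Some genes are not reported here. Members and lists were chosen with earlier results of these data known.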

Additional observations from a re-analysis of the deposited data

How the results depend on the processing

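Leaving out a replicate was not possible with 1 library per group, and no paired analysis was possible because each group holds 1 library. Values of 3 comparisons, with medians by complex and counts, were recalculated under other pseudocounts, filters and scalings, and under 2 alternatives chosen after seeing the data. Medians that moved by under 0.1 in log2 without a change of sign, and counts within 1.5 times, were taken as unmoved. This held for 161 values, while 34 moved and 3 changed sign. In the HKR3 library against the control, scaling to the same FPKM sum gave medians of -0.34 for all subunit genes and -0.33, -0.13, -0.49, -0.32 and -0.37 for complexes I to V, with 13 genes at least 1.5-fold lower. Scaling to the cytosolic ribosomal protein genes gave -0.21 and -0.20, -0.0020, -0.36, -0.19 and -0.24, with 5 such genes. In the HKR3 library against the library labelled siTERT, the same sum gave -0.28 and -0.28, 0.028, -0.46, -0.24 and -0.33, with 4 genes (4.82%, against 6.42% of all genes), and the ribosomal protein genes gave -0.19 and -0.19, 0.12, -0.37, -0.14 and -0.23, with 2 genes (2.41%, against 4.63%). Complex II thus changed sign in both of these. Without the filter on low values, complex IV had -0.25 there. In the library labelled siTERT against the control, complex III changed sign to 0.0011 with ribosomal protein scaling, and 2 weakly expressed rows were at least 1.5-fold lower without the filter. The 1 row at least 1.5-fold higher in either comparison with the control, NDUFC2-KCTD14, gave 0 with a pseudocount of 5, with a mean of at least 5 FPKM or without read-through rows and copies. Of 36 named genes past 1.5-fold in the HKR3 library against the control, 22 no longer passed with the same sum, 30 with ribosomal protein scaling, 3 with the median ratio over all genes and 3 with a pseudocount of 5. Apart from the construction of each alternative, the cause was not tested. Depth limits the genes under 1 FPKM, which rest on few fragments.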

Other observations

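Enzymes of the tricarboxylic acid cycle, which supply NADH and succinate to complexes I and II, had a median of -0.22 for HKR3 minus control in log2(FPKM + 1). Of 14, 13 were below the control, where 51.4% of all genes tested were. At least 1.5-fold lower were 2 (14.3%), close to the 12.7% of all genes. SUCLG1, a subunit of succinyl-CoA ligase, was at 113 and 74.0 FPKM, and the malate dehydrogenase MDH2 at 150.4 and 103 FPKM. IDH2 was at 42.0 and 27.5 FPKM, and DLD at 46.1 and 34.1 FPKM. The median was 0.05 when libraries were scaled to the ribosomal protein genes.

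Genes of coenzyme Q synthesis had a median of -0.12, with 9 of 13 below the control, and 0.02 with libraries scaled to the same sum. COQ10B, a coenzyme Q binding protein, was at 15.9, 34.4 and 16.2 FPKM. It was the 1 of 13 genes at least 2-fold higher, against 5.52% of all genes. PDSS1, which makes the isoprenoid tail, was at 19.2, 12.2 and 16.5 FPKM. COQ3 was at 9.35 and 6.87 FPKM, and COQ8B, a kinase-like protein, at 8.12 and 10.8 FPKM.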
